A study of Mus musculus with 32 samples.

Results

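The 10 genes described here encode products by which mast cells are recognised. They are the chymases Mcpt4 and Cma1, the tryptases Tpsb2 and Tpsab1, the carboxypeptidase Cpa3, the stem cell factor receptor Kit, the chains Fcer1a and Ms4a2 of the high-affinity IgE receptor, the histamine-forming enzyme Hdc and the transcription factor Gata2. They were chosen by name, and their probes were found through RefSeq accessions. Of several probes for a gene, the brightest on average across all 32 arrays was taken. A matched probe was found for 9 of the 10 genes, out of 22911 gene symbols and 45616 named features on the array. Tpsab1, which RefSeq lists as a transcribed pseudogene in GRCm38.p6, had no matched probe and is not analysed here. The probes' sequences are not given in the sources used here, so whether a probe also detects a close relative, such as Tpsab1 for the Tpsb2 probe, is not known.

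MCG 101, a transplantable mouse sarcoma, was grown in hosts that were wild type (EP2+/+) or knockout (EP2-/-) for the receptor EP2, which binds prostaglandin E2 and is the product of Ptger2. RNA from the tumor and from the tumor stroma was measured on single-colour arrays in 4 groups of 8 arrays, which are the stroma and the tumor of hosts of each genotype. Each group held 4 arrays labelled female and 4 labelled male. The genotype of a tumor array is that of the host, since the same tumor cells went into both, and every host carried a tumor, so no stroma of a tumor-free mouse is among the groups. Strain, age, the design of the knockout allele and the time after implantation are not given in the sources used here. Arrays are named below by group and by the number in their title. Nothing in the labels says that arrays came from separate animals, so p-values measure only the spread between these arrays, which may in part be technical.

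Mast cells leave the marrow as progenitors and mature in tissues under stem cell factor, the ligand of Kit. Their granules store proteases bound to heparin together with histamine, and both are released when antigen crosslinks IgE on the high-affinity receptor. Mouse mast cells of connective tissue, skin and muscle store Mcpt4, Cma1, Tpsb2 and Cpa3, whereas those of mucosal surfaces store Mcpt1 and Mcpt2. Mast cells are known to gather at the margins of many tumors. They carry prostaglandin E2 receptors, EP2 among them.

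A level is the log2 signal of a probe minus the log2 of the array's 75th percentile, so that 0 stands for a signal equal to that percentile. A difference is given on the log2 scale with its standard error (SE), and passing means that limma's p, adjusted by Benjamini and Hochberg over all genes tested, was under 0.05. Levels are compared between arrays for 1 gene and never between genes, because probes differ in brightness. Precision depends on how many arrays a group holds. In these pieces of tissue fewer mast cells and less RNA per cell cannot be told apart.

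Some arrays stood apart or went against their labels. On the first principal component, which held 59.9% of the variance, wild-type stroma 65 (46.1) and 82 (68.1) lay among the tumor arrays (27.4 to 87.1), and the remaining 14 stroma arrays spanned -145.2 to -3.17. Signal of Y-linked genes and Xist went against the sex label on 3 stroma arrays (wild-type 9, knockout 95 and 99) and 2 tumor arrays (knockout 95 and 99). The 7 skeletal muscle genes had a mean level of 6.39 to 8.22 in knockout stroma and of 1.07 (array 82) to 8.78 (array 9) in wild-type stroma, so the pieces called stroma carried muscle RNA. The single Ptger2 probe was no lower in the knockout (-3.74 against -4.60 in stroma, -4.51 against -5.54 in tumor), and its position relative to the deleted part is not known, so it checks no genotype label.

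Promoter sequence was available for 8 of the members, in 10 windows of the 250 bases before a RefSeq transcription start (GRCm38.p6). GATA factors, Gata2 among them, bind GATA motifs, and the short form GATAA was searched on both strands, so that it reads TTATC where it lies on the opposite strand. It occurred in the windows of Mcpt4, Cma1, Cpa3, Fcer1a and Ms4a2 and not in those of Kit, Hdc and Gata2. In all, 22.58% of 32851 promoter windows of the same length held it. The 5 windows with a match are shown 5′ to 3′ on the gene's strand. In stroma the levels of these genes moved together and that of Gata2 did not follow them. Hdc and Kit, which held no match, also moved with them (Pearson's r with Cpa3 of 0.82 and 0.77). So did Tpsb2 (0.87), for which no window was available. Capitals mark each match.
Mcpt4, chr14:56062311-56062560, minus strand: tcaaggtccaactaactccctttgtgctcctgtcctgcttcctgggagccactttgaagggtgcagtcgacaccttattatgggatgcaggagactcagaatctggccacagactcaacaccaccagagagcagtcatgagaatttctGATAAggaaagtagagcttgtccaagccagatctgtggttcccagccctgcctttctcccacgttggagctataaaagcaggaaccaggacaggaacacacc
Cma1, chr14:55944676-55944925, minus strand: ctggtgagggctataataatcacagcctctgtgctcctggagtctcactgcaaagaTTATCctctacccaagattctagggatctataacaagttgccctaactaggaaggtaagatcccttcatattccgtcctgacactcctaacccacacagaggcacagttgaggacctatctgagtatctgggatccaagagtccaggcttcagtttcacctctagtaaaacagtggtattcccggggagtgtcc
Cpa3, chr3:20242182-20242431, minus strand: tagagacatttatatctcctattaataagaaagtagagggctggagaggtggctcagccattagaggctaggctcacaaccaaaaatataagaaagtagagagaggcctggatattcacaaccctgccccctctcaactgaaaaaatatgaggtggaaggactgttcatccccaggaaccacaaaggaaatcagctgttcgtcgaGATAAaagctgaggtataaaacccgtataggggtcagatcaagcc
Fcer1a, chr1:173227230-173227479, minus strand: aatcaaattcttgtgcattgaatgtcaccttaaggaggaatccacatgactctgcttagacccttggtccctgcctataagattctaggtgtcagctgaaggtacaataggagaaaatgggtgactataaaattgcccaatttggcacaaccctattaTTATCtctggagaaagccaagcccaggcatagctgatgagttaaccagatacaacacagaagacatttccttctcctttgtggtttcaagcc
Ms4a2, chr19:11623720-11623969, minus strand: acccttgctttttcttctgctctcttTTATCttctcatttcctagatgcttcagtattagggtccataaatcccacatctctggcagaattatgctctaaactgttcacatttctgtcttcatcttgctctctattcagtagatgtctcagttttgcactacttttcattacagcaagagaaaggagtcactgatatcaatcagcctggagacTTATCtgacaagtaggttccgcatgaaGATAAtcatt

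The first base of the match lay 102 bases before the start in Mcpt4, 194 in Cma1, 45 in Cpa3 and 92 in Fcer1a. Ms4a2, which encodes the beta chain of the IgE receptor, held 3 matches, at 224, 37 and 10 bases. The E-box CANNTG, to which basic helix-loop-helix factors such as Mitf bind, was found in 4 of the 10 windows and in 66.22% of all windows. These letters describe the windows and do not show binding.

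The first comparison was between the tumor and the tissue around it. Mast cell proteases and the IgE receptor chains were higher in stroma than in tumor in hosts of either genotype, and Gata2 was lower. Kit passed as higher over all hosts and in knockout hosts but not in wild-type hosts, and Hdc passed in none of these. Over all 32 arrays 7 of the 9 members passed as higher in stroma and 1 as lower. Of all 27120 genes tested, 26% passed as higher and 36.8% as lower. The median difference was 1.89 over the members and -0.13 over all genes.

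Mcpt4 encodes the chymase of connective tissue mast cells. Its level ran from 1.31 to 4.33 in wild-type stroma (median 1.60) and from 2.06 to 3.97 in knockout stroma (median 2.99). In wild-type tumor the lowest, median and highest levels were -1.05, -0.36 and 0.78, and in knockout tumor they were -2.97, -0.63 and 2.20. Every wild-type stroma array lay above every wild-type tumor array, which held for 0.107% of genes. In knockout hosts 7 of 8 stroma arrays lay above all tumors, the exception being array 99, which lay below knockout tumor 81. The difference between stroma and tumor was 2.88 ± 0.30 (SE, 7.36-fold, limma adjusted p = 4.57e-08). It was 2.21 ± 0.43 in wild-type hosts (adjusted p = 0.000800) and 3.54 ± 0.43 in knockout hosts (adjusted p = 5.96e-07). Within each of the 6 slides stroma was higher, by 1.92 to 4.43.

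Cma1, which lies with Mcpt4 in the chymase locus on chromosome 14 and the chymase that depends on Cpa3 for storage, was likewise higher in stroma. Its lowest, median and highest levels were 0.50, 1.23 and 4.08 in wild-type stroma and 1.48, 2.51 and 3.61 in knockout stroma. In wild-type tumor they were -1.33, -0.48 and 0.94, and in knockout tumor -2.93, -0.32 and 2.14. All 16 stroma arrays lay above the tumor median, 8 of them above the highest tumor. Stroma exceeded tumor by 2.51 ± 0.32 (SE, 5.68-fold, limma adjusted p = 3.51e-07), and by 1.62 to 4.09 within the 6 slides.

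Tpsb2 encodes the tryptase that mast cells store as a tetramer on heparin. In wild-type stroma it ran from -1.51 to 1.49 (median -0.83), and in knockout stroma from -0.79 to 1.44 (median 0.23). Wild-type tumors ran from -2.58 to -0.93 (median -1.64) and knockout tumors from -2.30 to 0.15 (median -1.76). The ranges of the tissues overlapped, but all 16 stroma arrays lay above the tumor median. The difference was 1.42 ± 0.27 (SE, 2.68-fold, limma adjusted p = 5.06e-05), smaller than for the chymases, and 0.96 to 2.74 within slides.

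Cpa3, the granule carboxypeptidase of mast cells, ran from -0.55 to 1.69 in wild-type stroma (median -0.07) and from -0.32 to 2.09 in knockout stroma (median 1.17). In tumor the lowest, median and highest levels were -2.28, -1.73 and -0.11 in wild-type and -4.41, -1.33 and 1.06 in knockout hosts. Only 5 of the 16 stroma arrays lay above knockout tumor 81, and knockout tumor 59B had the lowest level of all 32 arrays. Stroma exceeded tumor by 2.18 ± 0.29 (SE, 4.53-fold, limma adjusted p = 5.44e-07), with 1.26 to 3.37 within slides.

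Kit binds stem cell factor, on which mast cell survival depends. Its levels in wild-type stroma were -2.86, -1.25 and 0.43 (lowest, median, highest), and in knockout stroma -2.24, -0.74 and -0.26. Wild-type tumors stood at -3.74, -2.17 and -1.53, knockout tumors at -2.99, -1.96 and -1.39. Of the 8 wild-type stroma arrays 5 lay above the highest wild-type tumor and the other 3 below the wild-type tumor median. The difference of 0.94 ± 0.28 (SE, limma adjusted p = 0.00504) was the smallest of the 7 that passed as higher. In wild-type hosts alone it was 0.90 ± 0.40 and did not pass (adjusted p = 0.0817). It did pass there without wild-type stroma 9 (1.17, adjusted p = 0.0266), without the arrays against their sex label (1.17, adjusted p = 0.0385) and with array weights (0.90, adjusted p = 0.0304). In knockout hosts the difference was 0.99 ± 0.40 (adjusted p = 0.0356). That call was lost without any 1 of knockout stroma 12, 15, 49, 51 and 95 and knockout tumor T149, 59B and 95 (0.86 to 0.98, adjusted p = 0.0505 to 0.0772). It was also lost after quantile scaling (0.86, adjusted p = 0.0527), with no filter (0.99, adjusted p = 0.0576), without knockout tumors 51 and 81 (1.03, adjusted p = 0.0507) and without the arrays against their sex label (0.76, adjusted p = 0.177). Stroma was higher on 5 of 6 slides (-0.02 to 1.98).

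Fcer1a, the chain that binds IgE, ran from -2.71 to -0.93 in wild-type stroma (median -2.15) and from -3.03 to -0.08 in knockout stroma (median -1.15). Wild-type tumors ran from -4.90 to -2.60 (median -3.67) and knockout tumors from -5.90 to -1.09 (median -3.51). In each tumor group 7 of 8 arrays were well above background. All 16 stroma arrays lay above the tumor median, and the difference was 1.89 ± 0.27 (SE, 3.71-fold, limma adjusted p = 1.36e-06), with 0.91 to 2.56 within slides.

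Ms4a2, the signal-amplifying beta chain, was near the background. It was well above it on 3 of 8 wild-type and 6 of 8 knockout stroma arrays, and on 2 and 1 of 8 tumor arrays. Levels in wild-type stroma were -5.84, -5.50 and -2.63 (lowest, median, highest), and in knockout stroma -5.51, -4.23 and -2.92. Wild-type tumors stood at -7.86, -6.94 and -3.42, the highest being array 5, and knockout tumors at -7.78, -6.72 and -4.45. All stroma arrays lay above the tumor median, and the difference was 1.91 ± 0.38 (SE, limma adjusted p = 8.63e-05). With 9 of 16 stroma and 3 of 16 tumor arrays above background, Ms4a2 entered this test through stroma, and the size of the difference is mostly against background. A second Ms4a2 probe was above background on 1 of 32 arrays, and with the mean of both probes the difference was 0.56 (adjusted p = 0.000727).

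Gata2 is needed for mast cell progenitors and is also used by endothelium and blood stem cells. Its lowest, median and highest levels were -1.19, -0.15 and 1.19 in wild-type stroma and -1.37, -1.04 and -0.82 in knockout stroma. They were 0.15, 0.72 and 0.98 in wild-type tumor and 0.10, 0.76 and 1.11 in knockout tumor. The knockout stroma arrays formed a tight group below every knockout tumor, which held for 18.1% of genes, whereas the wild-type stroma arrays were spread and their highest, array 82, lay above all tumors. Gata2 was lower in stroma by -1.22 ± 0.16 (SE, limma adjusted p = 5.28e-07), opposite to the proteases and receptors, and by -1.80 to -0.67 within the 6 slides. In wild-type hosts the difference was -0.72 ± 0.23 (adjusted p = 0.0202) and no longer passed without wild-type stroma 9 (-0.53, adjusted p = 0.0526), which in these hosts is also the 1 stroma array against its sex label. In knockout hosts it was -1.73 ± 0.23 (adjusted p = 1.15e-06).

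Hdc, which forms histamine, did not separate the tissues as the other members did. Over all arrays stroma and tumor differed by 0.12 ± 0.36 (SE, limma adjusted p = 0.785), and on slides by -1.67 to 1.29. In wild-type hosts the mean was lower in stroma (-0.86 ± 0.51, adjusted p = 0.195) and in knockout hosts higher (1.10 ± 0.51, adjusted p = 0.0654). Both differences passed without wild-type tumor 4 (-1.41, adjusted p = 0.00869, and 1.10, adjusted p = 0.01003) and with array weights (-1.38, adjusted p = 0.0256, and 1.26, adjusted p = 0.00501). The knockout one also passed without knockout tumor 81 (1.29, adjusted p = 0.0372) or wild-type tumor 82 (1.10, adjusted p = 0.0425), without knockout tumors 51 and 81 (1.39, adjusted p = 0.0340) and with the percentile of bright probes (1.27, adjusted p = 0.0395). Hdc levels on single tumors are given with the tumor comparison.

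**Figure D1:**
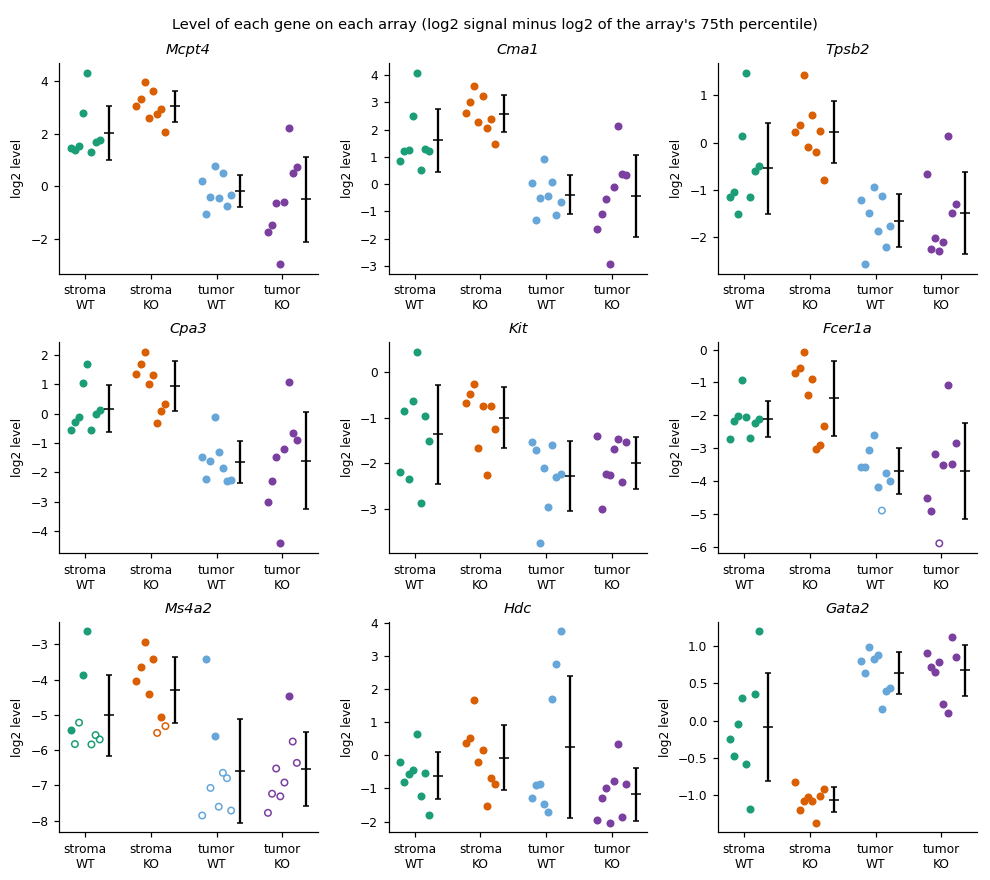
Level of each of the 9 measured genes on each array (vertical axes, log2 signal minus log2 of the array's 75th percentile) in the 4 groups of 8 arrays. Open points were not well above background, and the black marks show mean ± SD. Wild-type stroma 4 (4.33) and knockout tumor 81 (2.20) stand out for Mcpt4, and 3 wild-type tumors (1.70, 2.75 and 3.74) for Hdc.

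Taken by host, 6 members passed as higher in stroma and 1 as lower in wild-type hosts (11.8% and 19.8% of all genes), and 7 and 1 in knockout hosts (27.4% and 32.3%). Ms4a2 is among those higher in both hosts. It was above background on only 3 of 8 stroma and 2 of 8 tumor arrays of wild-type hosts, and on 6 and 1 of knockout hosts. The members' median difference was 1.58 in wild-type and 2.20 in knockout hosts, against -0.22 and -0.03 over all genes. The differences in the host genotypes use different arrays, but they come from the same fit, in which the spread of a gene is shared by all groups. Their p-values are therefore not independent. Over both hosts the count of 8 held without wild-type stroma 65 and 82, without wild-type tumor 5 and without the arrays against their sex label. In wild-type hosts the Tpsb2 and Ms4a2 differences were no longer called without wild-type stroma 4 (Tpsb2 0.84, adjusted p = 0.0739, and Ms4a2 1.19, adjusted p = 0.0729). Neither passed without wild-type stroma 68 (0.94, adjusted p = 0.0605, and 1.38, adjusted p = 0.0561) or when slide entered the fit as a block (1.06, adjusted p = 0.0641, and 1.45, adjusted p = 0.0659). Tpsb2 also did not pass without wild-type tumor 5 (0.94, adjusted p = 0.0631) or 65 (1.04, adjusted p = 0.0541) or with array weights (0.83, adjusted p = 0.0523), nor Ms4a2 without wild-type tumor 1 (1.27, adjusted p = 0.0648) or 45 (1.396, adjusted p = 0.0607) or with the mean of its probes (0.59, adjusted p = 0.113).

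**Figure D2:**
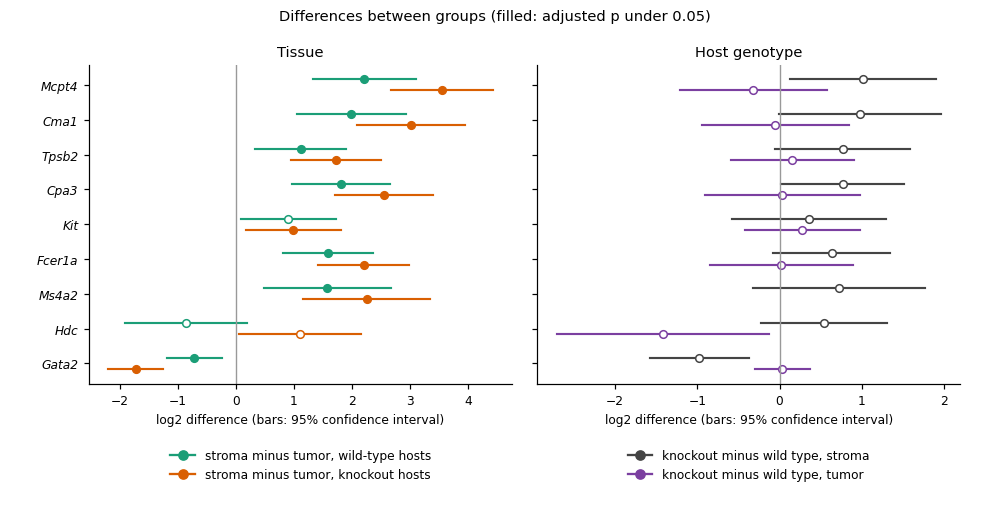
Log2 difference of each gene (horizontal axes) with its 95% confidence interval, for stroma minus tumor in each kind of host (left) and knockout minus wild type in each tissue (right). Filled points passed at an adjusted p under 0.05. The protease and IgE receptor differences between tissues lie to the right of 0 in both hosts and those of Gata2 to the left, and no difference between genotypes is filled.

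Other cells changed between the tissues as well. All 7 endothelial genes, all 7 skeletal muscle genes, 5 of 6 macrophage genes and 2 of 4 pan-leukocyte genes passed as higher in stroma, with median differences of 1.42, 6.29, 1.65 and 0.84, and all 7 cell cycle genes passed as lower (-2.67). Their part in the members' differences was not tested. Basophils also use Fcer1a, Ms4a2, Cpa3 and Hdc. The 6 basophil genes had a mean level of -6.93 to -4.46 in stroma and of -6.69 to -4.48 in tumor, and Mcpt8, the basophil protease, was well above background on 5, 4, 2 and 6 of 8 arrays in stroma and tumor of wild-type hosts and then of knockout hosts. Melanocytes also use Kit. Their 6 genes had mean levels of -5.98 to -4.17 in stroma and -6.52 to -4.02 in tumor, and Tyrp1 was above background on 1 of 32 arrays.

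The study's own question was whether the host's EP2 receptor matters, and the first place to look was stroma. Mcpt4 was 2.02-fold and Cma1 1.97-fold higher in the mean of knockout stroma, and 8 of the 9 members had a higher mean there, but none passed the test. No gene did: 0% of the 24782 genes tested passed, although 28.5% (7053 genes) had an unadjusted p under 0.05, as did 3 of the 9 members (Mcpt4, Cpa3 and Gata2). The members' median difference was 0.72, against 0.09 over all genes.

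Of the proteases, Mcpt4 differed by 1.01 ± 0.42 (SE, limma adjusted p = 0.145) and Cma1 by 0.98 ± 0.46 (adjusted p = 0.177). Tpsb2 and Cpa3 both differed by 0.77 (± 0.39 and ± 0.35, adjusted p = 0.196 and 0.169). For Mcpt4, Cma1 and Tpsb2 all 8 knockout arrays lay above the wild-type median, and for Cpa3 7 did. The group ranges overlapped, because wild-type stroma 4 (4.33) had the highest Mcpt4 level of all arrays and wild-type stroma 68 (2.78) the next highest of the wild type. The slide that held no knockout stroma held wild-type stroma 4 and 68. Within the other 5, and so without these high arrays, the knockout was higher on 5 of 5 for each of these proteases, by 1.28 to 2.28 for Mcpt4, 1.03 to 2.34 for Cma1, 0.84 to 2.05 for Tpsb2 and 0.07 to 2.12 for Cpa3. When slide entered the fit as a block, which also compares the genotypes within slides, Mcpt4 differed by 1.56 (adjusted p = 0.231).

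Among the receptors, Kit differed by 0.36 ± 0.44 (SE, limma adjusted p = 0.575), Fcer1a by 0.63 ± 0.33 (adjusted p = 0.211) and Ms4a2 by 0.72 ± 0.49 (adjusted p = 0.317). For Fcer1a the knockout arrays fell on both sides of the wild type: 4 of 8 lay above the highest wild-type array and 2 below the lowest. The high arrays were 12, 49, 51 and 15 (-0.71, -0.56, -0.08 and -0.90) and the low ones 81 and 95 (-3.03 and -2.91), with 59B (-1.39) and 99 (-2.32) between. Arrays 81 and 95 nevertheless had Mcpt4 levels of 2.76 and 2.93, above 6 and 7 of the 8 wild-type stroma arrays. Conversely wild-type stroma 4, highest for Mcpt4, had an Fcer1a level of -2.06, close to the wild-type median of -2.15. Arrays 81 and 95 carried the lowest leukocyte means of the knockout stroma group (0.58 and 0.60, against 0.86 to 2.82 on the other 6), and array 95 went against its sex label. The part of either in these levels was not tested.

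Hdc forms histamine from histidine in mast cells, basophils and activated myeloid cells. In stroma its lowest, median and highest levels were -1.79, -0.55 and 0.66 in wild-type and -1.53, -0.03 and 1.67 in knockout hosts. The genotypes overlapped over most of their range, and the difference of 0.54 ± 0.36 (SE, limma adjusted p = 0.309) did not pass. Gata2 was the 1 member with a lower mean in knockout stroma (-1.06 ± 0.17, with -0.08 ± 0.72 in the wild type, SD, n = 8 each). The difference was -0.97 ± 0.28 (SE, limma adjusted p = 0.125). All 8 knockout arrays lay below the wild-type median, and Gata2 was lower on 4 of 5 slides (-1.58 to 0.37).

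How many members passed in this comparison depended on the arrays and on their weights. With array weights 7 of 9 members passed (Mcpt4 1.39, adjusted p = 0.000186), but so did 65.7% of all genes. Without wild-type stroma 4, the array with the highest protease levels, 6 passed (Mcpt4, Cma1, Tpsb2, Cpa3, Ms4a2 and Gata2, Mcpt4 at 1.36 with adjusted p = 0.0134), beside 20.3% of all genes. Without wild-type stroma 9 only Gata2 passed (-1.16, adjusted p = 0.00638), beside 34.3% of genes. In 1 fit of all 32 arrays (16.1% of genes) and without the arrays against their sex label (23.8%) Gata2 also was the single member to pass, at -0.97 (adjusted p = 0.0107) and -1.23 (adjusted p = 0.0227). Without wild-type stroma 65 and 82, the arrays that lay among the tumors, none passed, and Mcpt4 stood at 0.74 (adjusted p = 0.700) and Gata2 at -0.56 (adjusted p = 0.652).

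Levels of several other cell types differed between the stroma groups in the same direction as the proteases. Neutrophil genes did not (3 higher and 4 lower in the knockout, median difference -0.04), nor did the 1 keratinocyte gene tested (-0.06). The means of all 7 skeletal muscle, all 6 adipocyte, all 7 endothelial, all 6 macrophage and all 4 leukocyte genes were higher in the knockout, with median differences of 1.49, 2.13, 0.56, 0.98 and 0.88, and those of all 7 cell cycle genes were lower (-1.43), and none of these genes passed. Wild-type stroma 9, the lowest for Mcpt4 and Cma1, had the highest muscle mean (8.78), the lowest leukocyte mean (-1.61) and the lowest cell cycle mean (-5.15) of the stroma arrays. Wild-type stroma 65 and 82 had the highest cell cycle means of stroma (3.13 and 3.21), and still had Mcpt4 levels (1.68 and 1.77) above every wild-type tumor. The part of tissue make-up in the genotype difference was not tested.

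In tumor the host's genotype made no difference that passed. Of 23749 genes tested 0% passed and 3.53% (838 genes) had an unadjusted p under 0.05, and among the 8 members tested 1 did, Hdc. Ms4a2 was left out of this test, being well above background on 3 of 16 tumor arrays. The differences of Mcpt4, Cma1, Tpsb2, Cpa3, Kit, Fcer1a and Gata2 ran from -0.32 to 0.28, with the smallest adjusted p, 0.980, for Kit. The 95% confidence interval was -1.21 to 0.57 for Mcpt4 and -0.91 to 0.98 for Cpa3.

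Within the tumor groups the proteases varied widely, and more so in knockout hosts. The SD of Mcpt4 was 1.63 among knockout and 0.63 among wild-type tumors (n = 8 each), and that of Cpa3 was 1.65 and 0.72. Knockout tumor 81 was the highest tumor for Mcpt4 (2.20), Cma1 (2.14), Tpsb2 (0.15), Cpa3 (1.06) and Fcer1a (-1.09), and it also had the highest macrophage (3.52), leukocyte (2.07) and adipocyte (0.37) means of all tumors and a muscle mean of 4.76. Knockout tumor 59B was the lowest for Mcpt4 (-2.97), Cma1 (-2.93), Cpa3 (-4.41) and Fcer1a (-5.90), with the lowest muscle mean (-4.34) of the tumors. Array 81 thus lay within the range of the stroma arrays for its named genes, and array 59B farthest below it for its own. The highest muscle mean of the tumors was that of knockout tumor 15 (5.53), where Mcpt4 stood at -0.62 and Cpa3 at -1.20. Wild-type tumor 1, with a muscle mean of 4.50, had levels of 0.18 and -1.46. The part of admixed stroma in these levels was not tested.

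Hdc set itself apart from the other members on 3 wild-type tumors. Wild-type tumors 1, 5, 45, 68 and 4 stood at -1.30, -0.89, -0.88, -1.46 and -1.72, whereas wild-type tumors 9, 65 and 82 stood at 1.70, 2.75 and 3.74. The last 3 lay above every other array of the series, stroma included, and had Mcpt4 levels of 0.52, -0.74 and -0.32, within the range of the other tumors. The knockout tumors ran from -2.04 (array 59B) to 0.34 (array 81), with a median of -1.13. Those arrays were also the lowest and highest knockout tumors for Mcpt4, Cma1 and Cpa3. The mean of Hdc was 0.24 ± 2.15 in wild-type and -1.18 ± 0.80 in knockout tumor (SD, n = 8 each), a difference of -1.42 ± 0.60 (SE, limma adjusted p = 0.980). Within slides 2, 3 and 4 knockout minus wild type was 1.22, -0.27 and -3.14. Wild-type tumors 9, 65 and 82 were on slides 4 and 5, of 1 scan day, with the lowest 75th percentiles of the tumors (584, 845 and 740). Wild-type tumors 1 and 5 and knockout tumor 12, on the same slides, had Hdc levels of -1.30, -0.89 and -1.95. The part of slide, scan day or array brightness in these levels was not tested.

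Neutrophils and other activated myeloid cells can also express Hdc. The 7 neutrophil genes had a mean level of 2.70, 2.60 and 3.26 on wild-type tumors 9, 65 and 82, and of -0.69 to 0.91 on the other 13 tumors, so the same 3 arrays were highest for both. All 7 neutrophil genes had lower means in knockout tumor (median difference -1.47), and none passed. A second Hdc probe was above background on 3 of 8 wild-type tumors, 1 of 8 knockout stroma arrays and no other array. In stroma the array highest for Hdc, knockout 51 (1.67), was also the highest of its group for Mcpt4, Cma1, Tpsb2, Cpa3, Kit, Fcer1a and Ms4a2, and had a neutrophil mean of 0.33. The part of neutrophils, mast cells or other cells in the Hdc levels of either tissue was not tested.

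**Figure D3:**
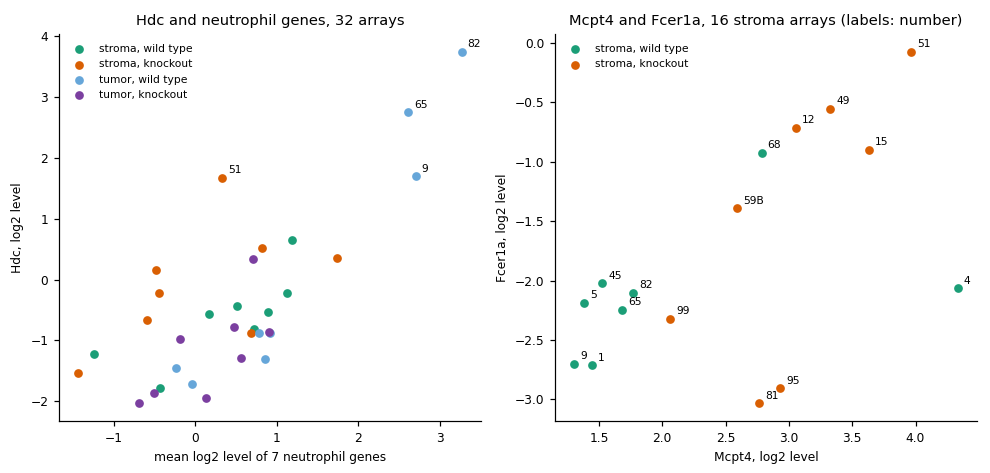
Left: Hdc level of each of the 32 arrays against the mean log2 level of 7 neutrophil genes, with wild-type tumors 9, 65 and 82 and knockout stroma 51 numbered. Right: Fcer1a against Mcpt4 on the 16 stroma arrays, each with its number. Wild-type tumors 9, 65 and 82 are highest on both axes on the left, and on the right knockout arrays 81 and 95 and wild-type array 4 lie below the other arrays with like Mcpt4 levels.

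The difference between genotypes was then compared between the tissues (knockout minus wild type in stroma, minus the same in tumor). It was above 0 for 8 of 9 members and below 0 for Gata2, with a median of 0.67, against 0.14 over all genes. None of the 27120 genes passed (0%), while 21% (5686 genes) and 3 members had an unadjusted p under 0.05. These were Hdc (1.96 ± 0.72, SE, limma adjusted p = 0.152), Mcpt4 (1.33 ± 0.61, adjusted p = 0.213) and Gata2 (-1.01 ± 0.32, adjusted p = 0.137). So a genotype difference that depends on the tissue was not shown for any member. Gata2 passed without wild-type stroma 9 (-1.20, adjusted p = 0.00534), beside 20.1% of all genes. Mcpt4 and Gata2 passed without wild-type stroma 4 (1.67, adjusted p = 0.0499, and -1.10, adjusted p = 0.0380), beside 8.32% of all genes, and 6 members with array weights, under which 48.9% of all genes passed.

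By the sex labels no member passed in either tissue, and no gene did (0% of genes in each). An unadjusted p under 0.05 was found for 1 of 9 members in stroma (2.27%, or 562, of all genes) and for 3 of 8 in tumor (7.64%, or 1815, of all genes). In stroma Fcer1a was -0.96 ± 0.33 (SE) in male against female (limma adjusted p = 0.9996). In tumor Hdc was 1.76 ± 0.60 (adjusted p = 0.552) and Mcpt4 1.15 ± 0.42 (adjusted p = 0.554) higher in male, and the 3 tumors with high Hdc were all labelled male. The 5 arrays against their sex label enter these values under their label.

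The members were next compared with each other across arrays, with Cpa3 as the reference. In stroma 7 of 8 members followed it. Over the 16 arrays Pearson's r was 0.95 for Ms4a2, 0.90 for Cma1, 0.87 for Mcpt4, 0.87 for Tpsb2, 0.86 for Fcer1a, 0.82 for Hdc and 0.77 for Kit, and Spearman's rho was 0.86, 0.89, 0.88, 0.86, 0.81, 0.75 and 0.84. Adjusted over the 15 relations computed, the permutation p for r was between 5e-05 and 0.000615 for these 7, and that for rho between 0.000112 and 0.00199. Without the arrays farthest from the Cpa3 median (wild-type stroma 4 and knockout stroma 51) r was 0.69 to 0.93. Gata2 did not follow (r = -0.24, rho = -0.15, adjusted permutation p = 0.478 and 0.677, r = -0.18 without those arrays). Ms4a2 was well above background on only 9 of the 16 stroma arrays, so its r rests in part on background signal.

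Within the genotypes r with Cpa3 in stroma was 0.97 (wild type) and 0.72 (knockout) for Mcpt4, but 0.65 and 0.99 for Fcer1a and 0.59 and 0.96 for Hdc. For Cma1 it was 0.97 and 0.81, for Tpsb2 0.94 and 0.73 and for Kit 0.84 and 0.75. So in knockout stroma Fcer1a and Hdc ran closest to Cpa3, and in wild-type stroma the chymases did. The other IgE receptor chain, Ms4a2, ran close to Cpa3 in both (0.94 and 0.96), in part on background signal. Whether these values differ between the genotypes was not tested. Slides held too few stroma arrays for a value within each.

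In tumor Cma1 (r = 0.97, rho = 0.92), Mcpt4 (0.93 and 0.83) and Fcer1a (0.89 and 0.82) followed Cpa3 over 16 arrays, with adjusted permutation p of 5e-05, 5e-05 and 9.37e-05 for r and 0.000112, 0.000333 and 0.000236 for rho. Without knockout tumors 59B and 81, which lay farthest from the Cpa3 median, r was 0.92, 0.80 and 0.69. Tpsb2 had r = 0.60 and rho = 0.50 (adjusted permutation p = 0.0218 and 0.0686), but r = 0.21 without those tumors, so its relation rested on them. Kit (r = 0.14, rho = 0.21), Hdc (0.01 and 0.09) and Gata2 (-0.19 and 0.06) had adjusted permutation p of 0.644, 0.976 and 0.561 for r and 0.537, 0.7998 and 0.840 for rho. Without tumors 59B and 81 their r was -0.06, -0.35 and 0.28. Within the genotypes r of Hdc with Cpa3 was -0.64 in wild-type and 0.80 in knockout tumors. Whether these values differ between the genotypes was not tested.

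Genes outside the list were ranked by their correlation with Cpa3, as a description. Of 12077 genes well above background on all stroma arrays, Cma1, Mcpt4, Tpsb2 and Fcer1a held ranks 2, 5, 6 and 8, and Hdc, Kit and Gata2 ranks 30, 116 and 7140. The genes with the highest r that are not members were Cln3 (0.92), Pml (0.88), Ucp2 (0.88), Fnbp1 (0.87), Glis3 (0.86), Tpsg1 (0.86), Mmp19 (0.86) and Dtx3l (0.86). Tpsg1 encodes the membrane-anchored gamma tryptase. Of 12215 such genes in tumor, Cma1 and Mcpt4 held ranks 1 and 2, and Tpsb2, Kit, Hdc and Gata2 ranks 169, 2678, 4313 and 7829. Cma1 and Mcpt4 were followed by Cma2 (0.93), a further chymase, and by Hacd4 (0.80), Zup1 (0.76), Folr2 (0.75), Cd83 (0.75), F630028O10Rik (0.74), Prkcb (0.74) and Kctd12 (0.73). Folr2 and Cd83 are used by macrophages and by antigen-presenting cells.

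Genes of mast cell biology beyond the members were described from 8 lists of 80 genes, 79 of them measured. Between stroma and tumor 66 were tested and 30 passed as higher and 8 as lower in stroma, with a median difference of 0.53. Of all genes 26% and 36.8% passed in these directions. Some of the genes that passed as higher met the filter mainly through stroma arrays, among them Hrh1, Aoc1, Il4 and Gata1. Up to 4 genes per list are named, those with the smallest p, and Ndst2, C5ar1 and Pla2g4a were added after their values were seen, to complete short counts. Most of these genes are also used by other cells, whose levels differed between the tissues as given above.

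Among the other proteases, 3 of 6 tested passed as higher and 1 as lower. Cma2 was higher in stroma by 2.50 ± 0.30 (SE, limma adjusted p = 1.64e-07), Tpsg1 by 1.98 ± 0.25 and Prss34, a protease of mast cells and basophils, by 1.07 ± 0.18, while Gzmb, a granzyme of cytotoxic lymphocytes, was lower (-1.70 ± 0.62). Tpsg1 was above background on 3 and 4 of 8 tumor arrays (wild type, knockout) and Prss34 on 3 and 2. The size of their differences is therefore in part against background. The mucosal chymases Mcpt1 and Mcpt2 were at background, Mcpt1 being above it on 1 of 8 arrays in each tumor group and on no stroma array, and Mcpt2 on 1 of 8 arrays in each group except knockout stroma, where it was on none. Mcpt4, Cma1, Tpsb2 and Cpa3, the proteases of connective tissue mast cells, were above background on all 32 arrays.

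Of the granule and amine genes 4 of 9 passed as higher and 1 as lower. Maob, which breaks down amines, was higher by 4.20 ± 0.49 (SE), Tph1, which makes serotonin, by 1.76 ± 0.36, the serotonin transporter Slc6a4 by 1.62 ± 0.35 and Slc18a2, which loads amines into vesicles, by 0.61 ± 0.13. Slc6a4 was above background on 5 and 7 of 8 stroma arrays (wild type, knockout) and on 2 of 8 tumor arrays of each genotype. Its difference is thus mostly against background. Tph1 was above background on 6 and 4 of 8 tumor arrays. Ndst2, which sulfates heparin, was the lower gene (-0.38 ± 0.12). In IgE receptor signalling 4 of 12 passed as higher and none as lower, with Syk (0.85 ± 0.30), Inpp5d (0.89 ± 0.33), Plcg2 (0.88 ± 0.33) and Lyn (0.72 ± 0.29). Of the other surface receptors 4 of 11 passed as higher and 1 as lower. The beta chains of the IL-3 receptor family rose (Csf2rb2 by 1.62 ± 0.26, Csf2rb by 1.24 ± 0.25), as did the adenosine receptor Adora3 (1.24 ± 0.35) and the complement receptor C5ar1 (0.86 ± 0.36), and the IL-33 receptor Il1rl1 was lower in stroma (-1.60 ± 0.34).

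Of the transcription factors 3 of 9 passed as higher and 1 as lower: Stat5b by 1.91 ± 0.30 (SE), Gata1, the relative of Gata2 that acts later in mast cell maturation, by 1.74 ± 0.39, Mitf by 0.64 ± 0.15, and Tal1 by -0.30 ± 0.13. Gata1 was above background on 3 and 6 of 8 stroma arrays (wild type, knockout) and on 1 of 8 tumor arrays of each genotype, so its difference is mostly against background. Among growth factors and cytokines 2 of 6 passed as higher and 2 as lower. Tslp (1.90 ± 0.28) and Il4 (1.67 ± 0.34) were higher in stroma, mostly against background too, since Tslp was above it on 2 of 8 tumor arrays of each genotype and Il4 on 1 and 0 of 8. Lower in stroma were Kitl, the ligand of Kit (-0.99 ± 0.15), and Il33 (-1.07 ± 0.27).

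Of the lipid mediator genes 7 of 10 passed as higher and 2 as lower. Alox5 (2.50 ± 0.33, SE) and Ltc4s (2.08 ± 0.29), which make leukotriene C4, and the leukotriene receptor Cysltr1 (2.09 ± 0.32) were higher in stroma, and Ptgs2, the inducible cyclooxygenase, was lower (-3.47 ± 0.56), as was Pla2g4a (-1.99 ± 0.34), which frees arachidonic acid. Of 6 histamine genes listed 5 were measured and 3 tested, and these 3 passed as higher. Hrh1 and Aoc1 met the filter mainly through stroma arrays, so this count leans toward stroma. The histamine-degrading enzyme Hnmt differed by 1.85 ± 0.22. The receptor Hrh1 was well above background on 13 of 16 stroma arrays and on no tumor array. On the measured values it passed as higher in stroma (limma adjusted p = 5.56e-08). Its fold was at least 3.36, with each tumor array set to the higher of its own signal and the lowest signal well above background. That bound was not itself tested. Aoc1, which also degrades histamine, differed by 1.38 ± 0.40, with 4 and 3 of 8 stroma arrays (wild type, knockout) and 1 and 0 of 8 tumor arrays above background.

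**Figure D4:**
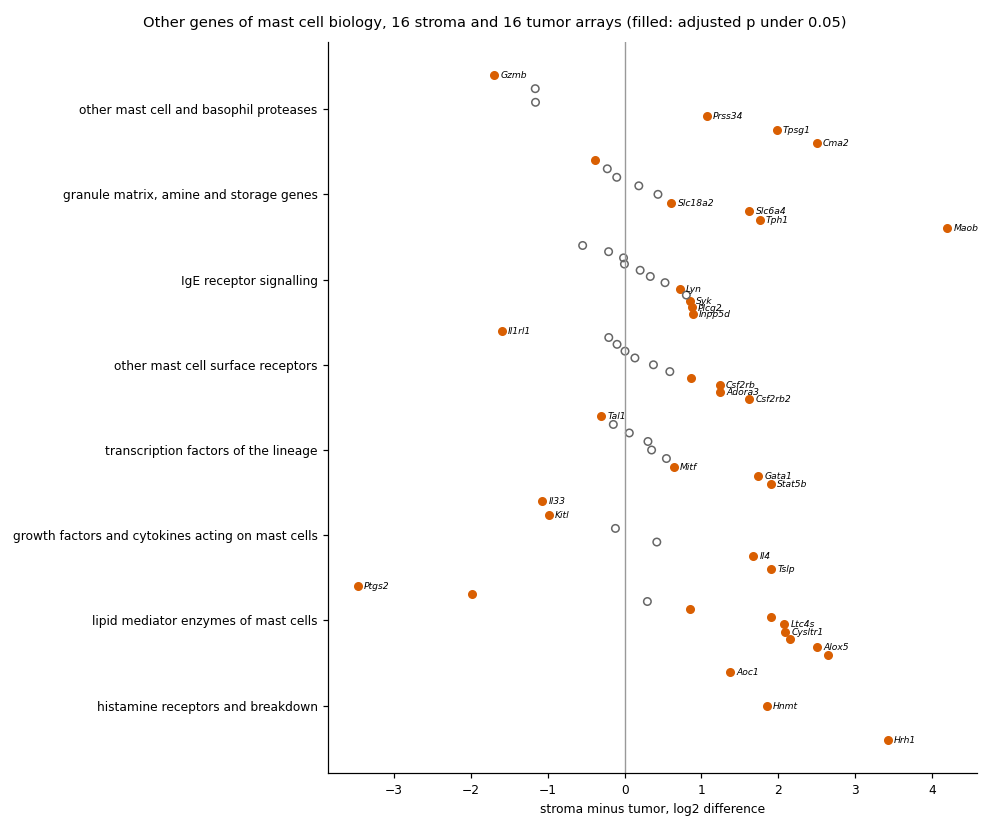
Stroma minus tumor difference (horizontal axis, log2) of each tested gene in the 8 lists, 1 point per gene. Filled points passed at an adjusted p under 0.05, and up to 4 per list, those with the smallest p, are named. Maob (4.20) lies farthest to the right and Ptgs2 (-3.47) farthest to the left, and Hrh1, above background on no tumor array, is drawn at its measured difference.

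Between genotypes none of the listed genes passed, of 63 tested in stroma (median difference 0.59, against 0.09 over all genes) and 55 in tumor (0.05 against -0.03). In stroma all 12 tested IgE receptor signalling genes (of 13 listed) and all 5 tested proteases (of 9 listed) had a higher mean in the knockout. Their median differences were 0.65 and 0.59, and 55.3% of all genes had a higher mean there. The untested proteases were above background on too few arrays and had lower means in the knockout, Mcpt8 at -6.59 against -4.86 in the wild type. The listed genes with the smallest p were Tslp (1.34 ± 0.37), Alox5 (1.495 ± 0.44) and Ltc4s (1.35 ± 0.41), each at a limma adjusted p of 0.125. Cma2 differed by 0.84 ± 0.44 (adjusted p = 0.209) and Tpsg1 by 0.61 ± 0.35 (adjusted p = 0.244). The genotype by tissue comparison called none of 66.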

How the data were processed

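RNA of 32 samples was labelled with Cy3 and hybridised to single-colour Agilent mouse arrays, with 200 ng of RNA per sample and RIN values above 7, per the labels' protocols. The deposited scanner files hold processed intensity values per spot, for which the submitters' processing notes name Agilent Feature Extraction 10.7.3.1, and per the file headers these are background-subtracted. The deposited value table holds log2 values. Set against the scanner files, 99.8% of its stroma and 99.7% of its tumor values were within 0.01 of log2 processed intensity minus the array's 75th percentile, centred per probe within a tissue, which the authors do not state (column medians -0.315 to 0.563). Its direction is that of the signal.

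Control spots and spots marked as outliers (58 to 483 per array) were left out, and no probe used was saturated. Of 56605 probes, 32994 matched 22911 RefSeq symbols. Between 47.8% and 75.2% of probes were well above background, and the 75th percentile ran from 584 to 1727. Each gene was represented by its brightest probe, and was tested where 8 or more arrays of the fit were well above background and 2 or fewer values were missing. limma 3.58.1 in R 4.3.3 fitted 1 mean per genotype and sex within a tissue (16 arrays), or per tissue, genotype and sex (32 arrays) for comparisons that involve both tissues. The 6 slides were examined as batches. Each slide belonged to 1 of the 2 scan days, which were not examined on their own.

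Members and lists were chosen with earlier results of these data known. Every member was named, and of each companion list up to 4 genes per comparison with the smallest p, and 1 gene of these lists is not reported here. The pairing check gave correlations of -0.045 to 0.339 between stroma and tumor of 1 number. Alternatives were normexp with quantile scaling, quantile scaling, another percentile, other filters, the mean of all probes, other variance models, array weights, slide or number as a block, sex left out, a threshold of 0.1, the value table, all arrays in 1 fit, and leaving out arrays. For normexp, which used an offset of 50, the median spot signal was used in place of the mean spot signal that had been planned. Leaving out wild-type tumor 5, and the block without number 9, were chosen after seeing the data. Permutation tests used 1e+05 draws, whose smallest p is 1e-05. Scripts were tested on simulated data.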

Additional observations from a re-analysis of the deposited data

Results flagged for a closer look

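In 36 groups of 8 arrays, 1 per member and group, the highest and lowest arrays were compared with the rest by Dixon's test, which marks about 1 in 20 groups by chance. It marked 2. Cpa3 on wild-type tumor 68 stood at -0.114, above the other wild-type tumors, the next of which was at -1.32. That array also had the highest Mcpt4, Cma1, Tpsb2 and Fcer1a levels of its group. Fcer1a on wild-type stroma 68 stood at -0.925, with the next wild-type stroma array at -2.02.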

How the results depend on the processing

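Over all hosts the 8 calls between stroma and tumor held under each alternative that tested the gene and without each array in turn. With the filter on all arrays, which tested 7 members, 6 passed. Between genotypes the calls depended on the setting. For stroma the shares of all genes that passed are given with that comparison above. In stroma the count of members passed was 1 with all 32 arrays in 1 fit, 7 with array weights, 1 without the arrays against their sex label, and 0 to 6 when 1 array was left out. For genotype by tissue it was 6 with array weights (48.9% of all genes), 1 with the replicate block without number 9 (23.1%), 1 without the arrays against their sex label (8.39%), and 0 to 2 when 1 array was left out. Between the sexes it was 1 in stroma with array weights (7.74% of all genes), and in tumor 0 to 1 when 1 array was left out.

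Some small differences changed sign, none of them past the threshold in either direction. In the genotype by tissue comparison Kit was -0.00140 with normexp, -0.10 after quantile scaling, -0.32 with the replicate block without number 9, -0.011 when wild-type tumor 5 was left out, -0.41 without the arrays against their sex label and -0.19 to 0.36 with 1 array left out, and Ms4a2 was -0.17 after quantile scaling. Between genotypes in stroma Kit was -0.037 without the arrays against their sex label. Between genotypes in tumor Cma1 was 0.059 with normexp, 0.017 after quantile scaling, 0.20 with slide as a block and 0.12 without the arrays against their sex label, and Mcpt4 was 0.035 with slide as a block. With the percentile of bright probes Cpa3, Fcer1a and Gata2 were -0.00190, -0.014 and -5.9e-05 there. With array weights Cpa3 and Fcer1a were -0.40 and -0.36. Without knockout tumors 51 and 81 Cpa3, Fcer1a and Tpsb2 were -0.44, -0.49 and -0.033, and without wild-type tumor 5 they were -0.11, -0.043 and -0.013. Gata2 was -0.17 without the arrays against their sex label. With 1 array left out the tumor differences ran from -0.30 to 0.18 for Cma1, -0.21 to 0.30 for Cpa3, -0.25 to 0.23 for Fcer1a, -0.055 to 0.11 for Gata2 and -0.067 to 0.31 for Tpsb2. Hdc between stroma and tumor was -0.059 with array weights, -0.16 with the mean of all probes and -0.15 to 0.30 with 1 array left out. The cause was not tested for any of these.

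Whether the numbers in the titles pair stroma with tumor was neither shown nor excluded. Of 15 shared numbers 9 correlated above 0.1, and 5 stroma arrays correlated best with their own number. No chance level was computed for these counts. Knockout 95 and 99 went against their sex label in both tissues, but wild-type 9 in stroma only. With the number as a random replicate block 8 members passed between stroma and tumor (Mcpt4 2.88, adjusted p = 1.43e-08) and 17505 genes in place of 17028, and none for genotype by tissue. Without number 9 this block also called Kit in wild-type hosts (1.29, adjusted p = 0.01004). Ms4a2, near background on most arrays, has the least certain differences.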
